A study of Drosophila melanogaster with 6 samples.

Results

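The Notch pathway core genes are 10 genes of Drosophila melanogaster picked by name for their roles in Notch signalling, out of 17493 gene identifiers in the deposited counts. They are the receptor gene N, the ligand genes Dl and Ser, the ligand-activating ubiquitin ligase genes neur and mib1, the receptor protease gene kuz, the receptor glycosyltransferase gene fng, the inhibitor gene numb, the transcription factor gene Su(H) and its antagonist H. All 10 passed the filter on low counts and were among the 10526 genes tested. This list and the other gene lists used here were chosen with earlier results of these data known. RNA from whole embryos aged 10 to 15 hours was sequenced in 2 lines with edits in sgg (shaggy), which encodes the fly form of the kinase GSK-3. The caspase-site line, sggisoD-CI-DS-SFS, was homozygous for changes at 2 caspase recognition sites, and the control line, sggisoD-DS-SFS, was otherwise wild type. Both lines carried the same DsRed tag at the N-terminus and the same internal StrepII-Flag-StrepII tag. Each line is a single stock and gave 3 separate embryo collections, so the effect of the site changes and other differences between the stocks cannot be told apart.

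Notch is a receptor that is activated by ligands on neighbouring cells. Ubiquitin ligases start endocytosis of the ligand in the sending cell, the pull exposes the receptor to the ADAM protease Kuzbanian, and γ-secretase then frees the intracellular domain, which joins Su(H) and Mastermind in the nucleus to switch on target genes such as those of the Enhancer of split complex. In the fly embryo the pathway is best known for lateral inhibition, which singles out neuroblasts from the neuroectoderm, and it also acts in asymmetric division of neural precursors, in muscle progenitors and at segment boundaries in the epidermis.

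Of the 10 core genes, 6 fell in the caspase-site line and none rose. The genes that fell were both ligand genes (Dl, Ser), the receptor gene N, the modifier gene fng, the ligase gene neur and the transcription factor gene Su(H). Their levels were 18.8% to 34.7% below those of the control line, so that the largest difference, that of fng, was 1.53-fold. The other 4 genes, mib1, kuz, numb and H, did not pass the test. The count was 6 by edgeR's quasi-likelihood test at an adjusted p under 0.05, adjusted over all tested genes. At the same threshold 22.3% of all tested genes passed in either direction and 8.67% passed as lower in the caspase-site line. In 6 of the 10 core genes, the same 6, the 3 caspase-site values all lay below the 3 control values. This was so for 20.0% of all tested genes, and values of the lines were apart in either direction for 41.9%. Such separation largely goes with the call, so it is not separate support for it. Among the 4789 tested genes whose mean level lay within the range of the core genes, 10.6% passed as lower. The core genes were chosen with earlier results known, so these shares are no test of the list. The median log2 fold change was -0.32 for the core genes and -0.01 for all tested genes. With one library left out the core median was between -0.38 (without caspase-site library 1) and -0.24 (without caspase-site library 2). Calls over all genes were 1437 higher and 913 lower with the main scaling and 1268 higher and 1272 lower with library size alone, and 6 core genes were called under both. In bulk embryos, fewer cells that express a gene and less RNA of it per cell cannot be told apart.

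The libraries held 15160388 to 15641368 counted reads in the caspase-site line and 12646077 to 19454630 in the control line. The engineered gene sgg was at 308, 303 and 307 CPM (counts per 1000000 reads, with TMM scaling) in caspase-site libraries 1, 2 and 3, against 285, 308 and 314 CPM in control libraries 1, 2 and 3. Its log2 fold change of 0.02 (standard error 0.06, edgeR adjusted p 0.871) was smaller than its error, and the reads cover all forms of the gene. In a principal component analysis of log2 CPM the lines parted on the first axis (58.1% of the variance), and control library 1 stood apart from control libraries 2 and 3 on the second (16.4%). Of 7 tested genes for cuticle proteins and cuticle tanning of late embryos, 5 rose in the caspase-site line (Ddc, Ccp84Ab, TwdlB, TwdlD and Lcp4, by 0.81 to 1.41 on the log2 scale) and 1 fell (ple, log2 fold change -0.44), and their summed level was 2220 to 2925 CPM in that line against 863 to 1383 CPM in the control line. Of 9 tested patterning genes of early embryos, 4 fell (eve, run, slp1 and kni, with log2 fold changes of -0.62 to -0.29) and none rose, with 124 to 134 CPM in the caspase-site line against 147 to 159 CPM in the control line. The part of these differences in the results on Notch genes was not tested.

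**Figure D1:**
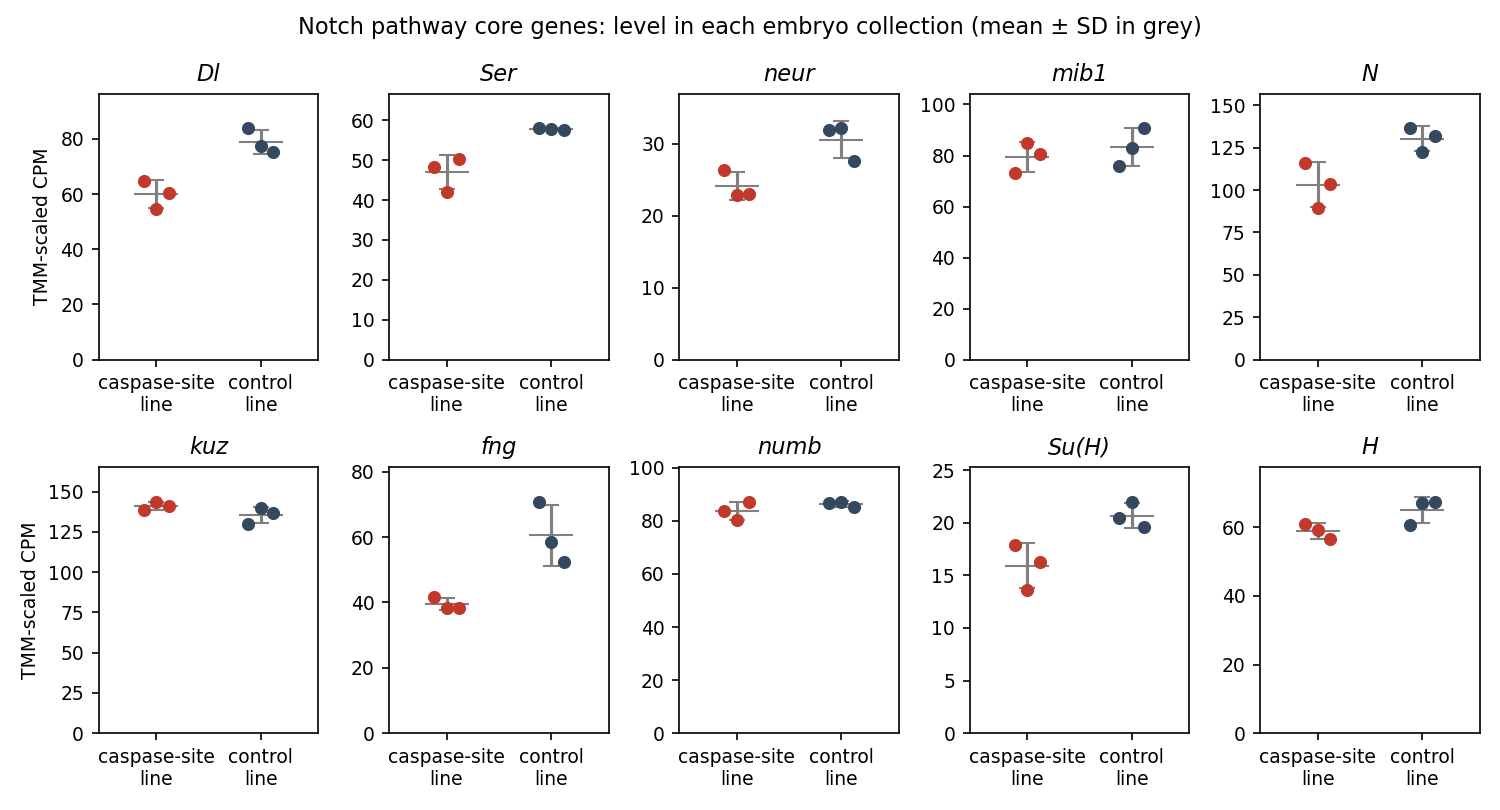
TMM-scaled CPM (vertical axis, from 0) of each core gene in the 3 caspase-site libraries (red, left) and the 3 control libraries (dark, right), with the mean and SD in grey. For Dl, Ser, neur, N, fng and Su(H) all 3 caspase-site values lie below the 3 control values, and for mib1, kuz, numb and H the lines overlap.

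Delta and Serrate, the products of Dl and Ser, are the pair of transmembrane ligands of Notch in the fly. Dl (FBgn0000463, 3R, 19302731 to 19326217, reverse strand) was at 64.8, 54.6 and 60.4 CPM in caspase-site libraries 1, 2 and 3, against 83.9, 77.6 and 75.4 CPM in control libraries 1, 2 and 3. The highest caspase-site value stayed below the lowest control value by more than the spread within either line. This gave a log2 fold change of -0.40 (standard error 0.08, 95% interval -0.58 to -0.21, edgeR adjusted p 0.0116). Dl kept its call whichever library was left out, with edgeR adjusted p of at most 0.041. Ser (FBgn0004197, 3R, 27172090 to 27194267, reverse strand) had 48.4, 42.1 and 50.3 CPM in the caspase-site libraries, against 58.0, 57.8 and 57.5 CPM in the control libraries. The control collections lay within 1 CPM of each other, and the caspase-site collections spread more widely, all below them. Ser had a log2 fold change of -0.30 (standard error 0.08, edgeR adjusted p 0.0297). The call of Ser was lost without caspase-site library 1 (edgeR adjusted p 0.0589) or 2 (0.0719) and without control library 2 (0.0742) or 3 (0.0599).

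Neuralized and Mindbomb 1, the products of neur and mib1, are the E3 ubiquitin ligases that promote ligand endocytosis. neur passed the test and mib1 did not. neur (FBgn0002932, 3R, 9020348 to 9039471, reverse strand) was at 26.4, 22.8 and 23.1 CPM in caspase-site libraries 1, 2 and 3, against 31.9, 32.2 and 27.6 CPM in control libraries 1, 2 and 3. The lines did not overlap, although caspase-site library 1 and control library 3 came close to each other. For neur the log2 fold change was -0.34 (standard error 0.10, edgeR adjusted p 0.0369). The call of neur was lost without caspase-site library 2 (edgeR adjusted p 0.0987) or 3 (0.105) and without control library 1 (0.0715) or 2 (0.0997). In the Ensembl release 115 annotation, 38.8% of the neur exon bases lie opposite asRNA:CR31429, which had 0 counts in all 6 libraries. mib1 (FBgn0263601, 3L, 16006552 to 16011812, reverse strand) had 73.2, 84.9 and 80.4 CPM in the caspase-site libraries, against 75.9, 83.0 and 90.7 CPM in the control libraries. These values overlapped, and the log2 fold change of -0.07 had a 95% interval of -0.27 to 0.13 (edgeR adjusted p 0.63). A fall of mib1 as large as the estimate for neur lies outside that interval. Within a library the ratio of neur to mib1 reads was 0.360, 0.269 and 0.287 in the caspase-site line, against 0.421, 0.388 and 0.304 in the control line, so the ratios of the lines overlapped (two-sided exact permutation p 0.2), and unequal change of neur and mib1 was not shown.

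The receptor gene N passed the test, as did fng, whereas kuz and numb, whose products also act on the receptor, did not. N (FBgn0004647, X, 3134870 to 3172221, forward strand) was at 116, 89.6 and 104 CPM in caspase-site libraries 1, 2 and 3, against 136, 123 and 132 CPM in control libraries 1, 2 and 3. All caspase-site values were below all control values, and caspase-site library 2 was the lowest. N had a log2 fold change of -0.34 (standard error 0.10, 95% interval -0.56 to -0.12, edgeR adjusted p 0.0384). Of the 6 fits with one library left out, that without caspase-site library 1 kept the call of N. It was lost without caspase-site library 2 (log2 fold change -0.25, edgeR adjusted p 0.0917) or 3 (0.101), and without control library 1 (0.0713), 2 (0.0567) or 3 (0.0847). N lies 455.3 kb from sgg on the X chromosome. Of the 162 tested genes within 1 Mb of sgg, 14.2% passed the test, against 22.3% of all tested genes. This share describes the region and not N. The part of stock differences near sgg in the fall of N was not tested.

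Kuzbanian, the product of kuz, is the metalloprotease that makes the ligand-induced cut in Notch. kuz (FBgn0259984, 2L, 13550139 to 13639411, forward strand) was at 139, 144 and 141 CPM in the caspase-site line, against 130, 139 and 136 CPM in the control line. kuz had the most reads of the core genes in 5 of the 6 libraries, N having more in control library 1, and its values overlapped between the lines. The log2 fold change of 0.06 for kuz had a 95% interval of -0.07 to 0.19 (edgeR adjusted p 0.501), which leaves out a fall of the size estimated for N. Numb, the product of numb, is the endocytic adaptor that is handed to one daughter of a dividing neural precursor and inhibits Notch there. numb (FBgn0002973, 2L, 9437469 to 9464184, forward strand) was at 83.8, 80.2 and 87.2 CPM in the caspase-site line, against 86.9, 87.2 and 85.3 CPM in the control line. Its log2 fold change of -0.05 had a 95% interval of -0.19 to 0.10 (edgeR adjusted p 0.633).

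Fringe, the product of fng, is the glycosyltransferase that extends O-fucose on the EGF repeats of Notch, which favours signalling by Delta and limits signalling by Serrate. fng (FBgn0011591, 3L, 20925891 to 20949512, reverse strand) was at 41.6, 38.4 and 38.3 CPM in caspase-site libraries 1, 2 and 3, against 70.8, 58.4 and 52.5 CPM in control libraries 1, 2 and 3. The caspase-site values were close together, and the control values spread widely, with control library 1 the highest. Its log2 fold change was -0.62 (standard error 0.11, 95% interval -0.87 to -0.36, edgeR adjusted p 0.00647), the largest in size among the core genes. Without control library 1 it was -0.49, and the call held (edgeR adjusted p 0.00407). fng and Dl are the 2 core genes whose call held whichever of the 6 libraries was left out.

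Su(H), the Notch-regulated DNA-binding factor, and Hairless, the product of H that turns Su(H) into a repressor by bringing in corepressors, are the nuclear pair among the core genes. Su(H) (FBgn0004837, 2L, 15039488 to 15043334, forward strand) had the fewest reads of the 10 genes, 269, 207 and 249 in caspase-site libraries 1, 2 and 3, against 260, 431 and 363 in control libraries 1, 2 and 3. Scaled to library size these were 17.9, 13.6 and 16.2 CPM in the caspase-site line, against 20.4, 22.0 and 19.6 CPM in the control line. The scaled values did not overlap, and caspase-site library 2 was the lowest. Su(H) had a log2 fold change of -0.38 (standard error 0.12), and its edgeR adjusted p of 0.0487 was just inside the threshold. It was just outside with DESeq2's size factors (0.0502) and in the DESeq2 Wald test (0.0571). The call of Su(H) was also lost without caspase-site library 2 (log2 fold change -0.28, edgeR adjusted p 0.12) or 3 (0.105) and without control library 1 (0.0685), 2 (0.135) or 3 (0.0692). H (FBgn0001169, 3R, 20621938 to 20628915, forward strand) was at 60.9, 59.2 and 56.5 CPM in the caspase-site line, against 60.8, 67.0 and 67.5 CPM in the control line. Control library 1 fell among the caspase-site values, and the log2 fold change of -0.15 (95% interval -0.31 to 0.02, edgeR adjusted p 0.178) did not pass the test.

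**Figure D2:**
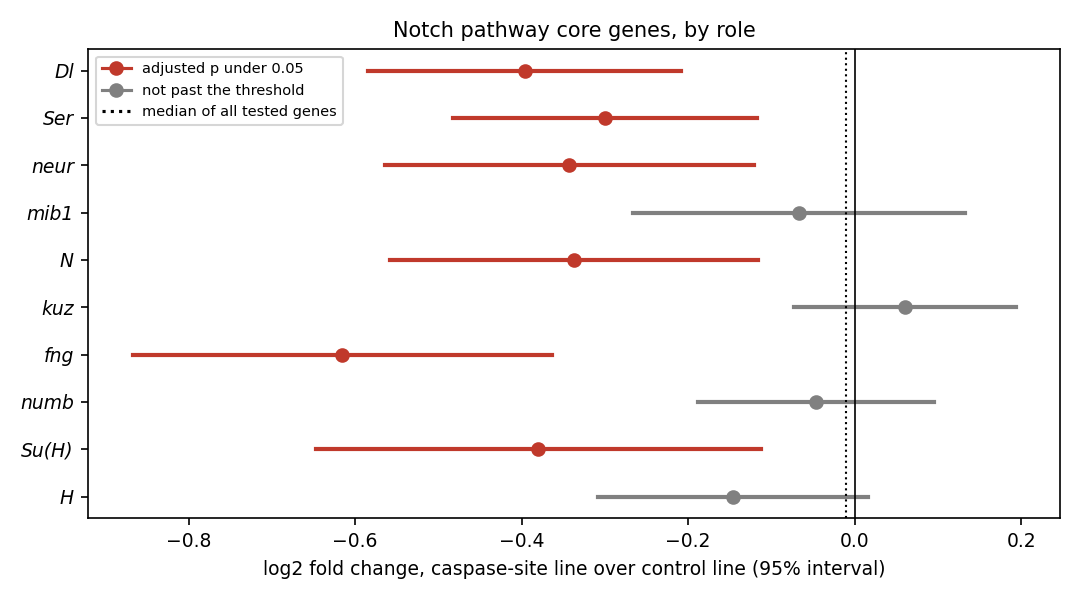
Log2 fold change of each core gene, caspase-site line over control line (horizontal axis), with its 95% interval from the quasi-likelihood fit on 3 libraries per line, in red where the adjusted p was under 0.05. The intervals of Dl, Ser, neur, N, fng and Su(H) lie below 0, and those of mib1, kuz, numb and H include 0.

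In the authors' deposited table, a limma-voom comparison of the same libraries, 6 of the 10 core genes have an adjusted p under 0.05, against 22.6% of all its genes in either direction and 8.62% as lower in the caspase-site line. They are the same 6 genes, each lower in the caspase-site line. In the authors' deposited table the log2 fold change is given as control over caspase-site line, and it is 0.59 for fng (adjusted p 0.00735), 0.39 for Dl (0.0104), 0.39 for Su(H) (0.0427), 0.34 for N (0.0338), 0.34 for neur (0.0394) and 0.30 for Ser (0.0274).

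Ratios of read counts within a library do not depend on how libraries are scaled, and 6 ratios between pairs of core genes were compared. The ratio of numb to N reads was 0.721, 0.895 and 0.842 in caspase-site libraries 1, 2 and 3, against 0.637, 0.712 and 0.645 in control libraries 1, 2 and 3. The ratio of kuz to N reads was 1.19, 1.60 and 1.36 in the caspase-site line, against 0.952, 1.14 and 1.03 in the control line. In both, all caspase-site ratios were above all control ratios, and both share N as the denominator. The pairs were chosen with the values of the core genes known. The other 4 ratios overlapped between the lines. The ratio of H to Su(H) reads averaged 3.75 ± 0.52 in the caspase-site line and 3.15 ± 0.25 in the control line (SD, n = 3 each). The ratio of Ser to Dl averaged 0.784 ± 0.0443 in the caspase-site line and 0.733 ± 0.0371 in the control line (SD, n = 3 each). The ratio of fng to N averaged 0.385 ± 0.0381 in the caspase-site line and 0.464 ± 0.0618 in the control line (SD, n = 3 each). In a two-sided exact permutation test, 3 libraries against 3 cannot give a p below 0.1. The ratios of numb to N and of kuz to N reached that value, the other 4 had p of 0.2, and all 6 were at 0.2 after Benjamini-Hochberg adjustment.

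**Figure D3:**
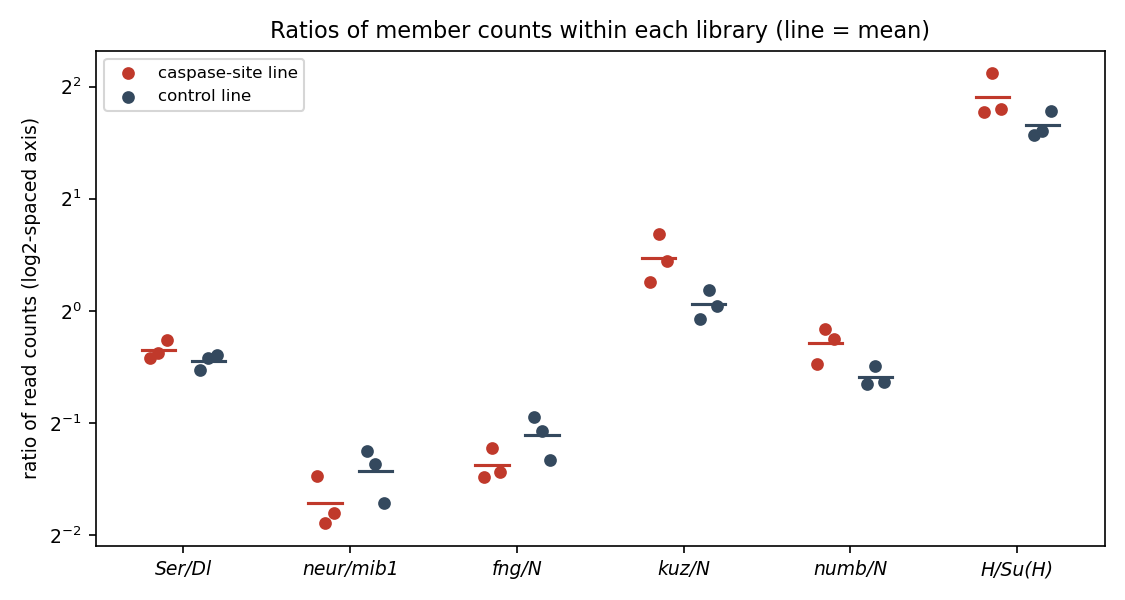
Ratio of read counts of pairs of core genes within each library (vertical axis, log2-spaced) for the caspase-site line (red, left) and the control line (dark, right), with a short line at the mean of 3 libraries. The kuz to N and numb to N ratios of the caspase-site line lie above those of the control line, and the other 4 pairs overlap.

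Levels were also set side by side between genes, per kilobase of annotated exons. fng, with 1 annotated transcript and 1.959 kb of exons, was first in both lines, at 20.1 ± 0.934 CPM per kb in the caspase-site line and 30.9 ± 4.78 CPM per kb in the control line (SD, n = 3 each). In the control line it stood clear of all other core genes, whereas in the caspase-site line its values overlapped those of kuz (19.9 ± 0.354 CPM per kb, SD, n = 3) and mib1 (19.4 ± 1.44 CPM per kb, SD, n = 3). numb followed, at 17.0 ± 0.712 CPM per kb in the caspase-site line and 17.6 ± 0.214 CPM per kb in the control line (SD, n = 3 each). Dl came next, at 11.4 ± 0.966 CPM per kb in the caspase-site line and 15.0 ± 0.834 CPM per kb in the control line (SD, n = 3 each). N, with 10.15 kb of exons, was at 10.2 ± 1.31 CPM per kb in the caspase-site line and 12.8 ± 0.701 CPM per kb in the control line (SD, n = 3 each). In the caspase-site line the values of N overlapped those of both Dl and H, and in the control line they lay apart from both. Ser was at 8.05 ± 0.736 CPM per kb in the caspase-site line and 9.91 ± 0.0441 CPM per kb in the control line (SD, n = 3 each). The lowest levels were those of neur and Su(H), which overlapped each other in both lines and lay between 4.62 and 7.46 CPM per kb. For neur, 38.8% of exon bases lie opposite asRNA:CR31429, and the strand setting of the counting is not given. Whether reads in that stretch were counted for neur is not known, so its place in this order is uncertain. The exon lengths join all annotated transcripts of a gene, so levels of genes with several transcripts, such as neur and kuz with 5 each, may be understated.

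**Figure D4:**
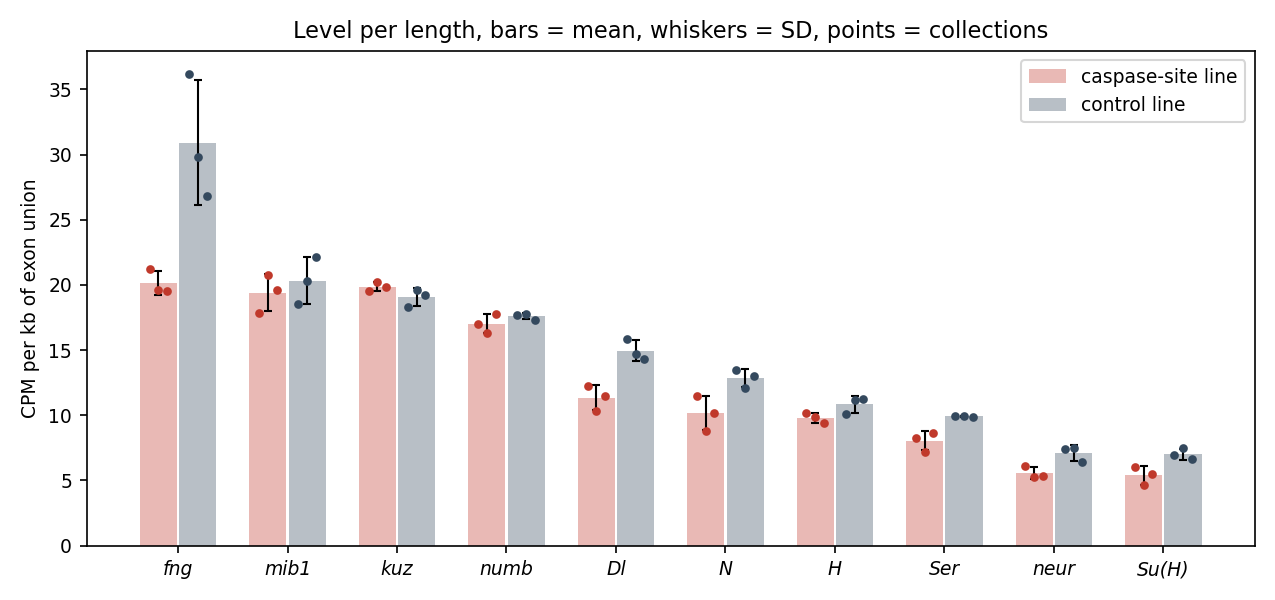
CPM per kilobase of joined exons (vertical axis, from 0) for the 10 core genes in order of their control level, with bars at the mean, whiskers at ± SD and points for the 3 libraries of the caspase-site line (red, left) and the control line (dark, right). fng is highest in both lines, and neur and Su(H) are lowest.

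Targets and partners of the pathway were taken from lists of its other components, 51 genes of which 50 were tested. These lists too were chosen with earlier results known. Of the 50 tested genes, 7 fell and 2 rose, against 8.67% lower and 13.7% higher among all tested genes. Their median log2 fold change was -0.10, against -0.01 for all tested genes. With one library left out the median of these 50 genes was between -0.17 (without caspase-site library 2) and -0.11 (without caspase-site library 3). The 7 basic helix-loop-helix genes of the Enhancer of split complex encode repressors and are direct Notch targets. They lie together in 43.4 kb of chromosome arm 3R, so they are not independent of one another. All 7 estimates were negative, with a median log2 fold change of -0.54. For 5 of the 7 all caspase-site values were below all control values, which was so for 20.0% of all tested genes. E(spl)m7-HLH passed the test. It was at 12.3, 15.1 and 14.5 CPM in caspase-site libraries 1, 2 and 3, against 21.9, 20.5 and 18.6 CPM in control libraries 1, 2 and 3, a log2 fold change of -0.54 (standard error 0.11, edgeR adjusted p 0.0127). The call of E(spl)m7-HLH held in each fit that left out one library. The most abundant of them, E(spl)mbeta-HLH, was at 28.5, 39.2 and 33.8 CPM in the caspase-site line, against 45.4, 33.0 and 38.9 CPM in the control line, and its values overlapped (edgeR adjusted p 0.346). E(spl)m3-HLH had a log2 fold change of -0.42 (edgeR adjusted p 0.0891) and E(spl)mgamma-HLH one of -0.57 (0.0739). E(spl)mdelta-HLH, E(spl)m5-HLH and E(spl)m8-HLH had 9 to 68 reads per library, with log2 fold changes of -0.75, -0.63 and -0.28 and edgeR adjusted p of 0.143 to 0.397.

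The Bearded family encodes small proteins that bind Neuralized and inhibit it, and of its 7 tested genes 3 fell and none rose. Tom was at 16.2, 14.3 and 11.7 CPM in caspase-site libraries 1, 2 and 3, against 37.3, 33.8 and 24.3 CPM in control libraries 1, 2 and 3. The lines stood well apart, and the log2 fold change of Tom was -1.17 (standard error 0.18, edgeR adjusted p 0.00338). Ocho was at 1.99, 2.30 and 2.09 CPM in the caspase-site line, against 6.13, 3.47 and 4.27 CPM in the control line, a log2 fold change of -1.10 (standard error 0.26, edgeR adjusted p 0.0185). The call of Ocho was lost without caspase-site library 1 or 3, with edgeR adjusted p of at most 0.0615. E(spl)malpha-BFM was at 3.58, 2.44 and 3.19 CPM in the caspase-site line, against 7.78, 4.95 and 4.76 CPM in the control line, a log2 fold change of -0.91 (standard error 0.26, edgeR adjusted p 0.0358). It missed the threshold without any one library other than control library 3 (edgeR adjusted p of at most 0.101). For these genes control library 1 held the highest value, and the summed level of the family was 41.7 to 47.6 CPM in the caspase-site line against 62.0 to 91.2 CPM in the control line. E(spl)m6-BFM and E(spl)m2-BFM had log2 fold changes of -0.53 and -0.37 (edgeR adjusted p 0.0947 and 0.127). Brd and E(spl)m4-BFM had at most 52 reads in a library and estimates near 0, whose sign changed between fits. BobA, with 3 to 22 reads per library, was below the filter.

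**Figure D5:**
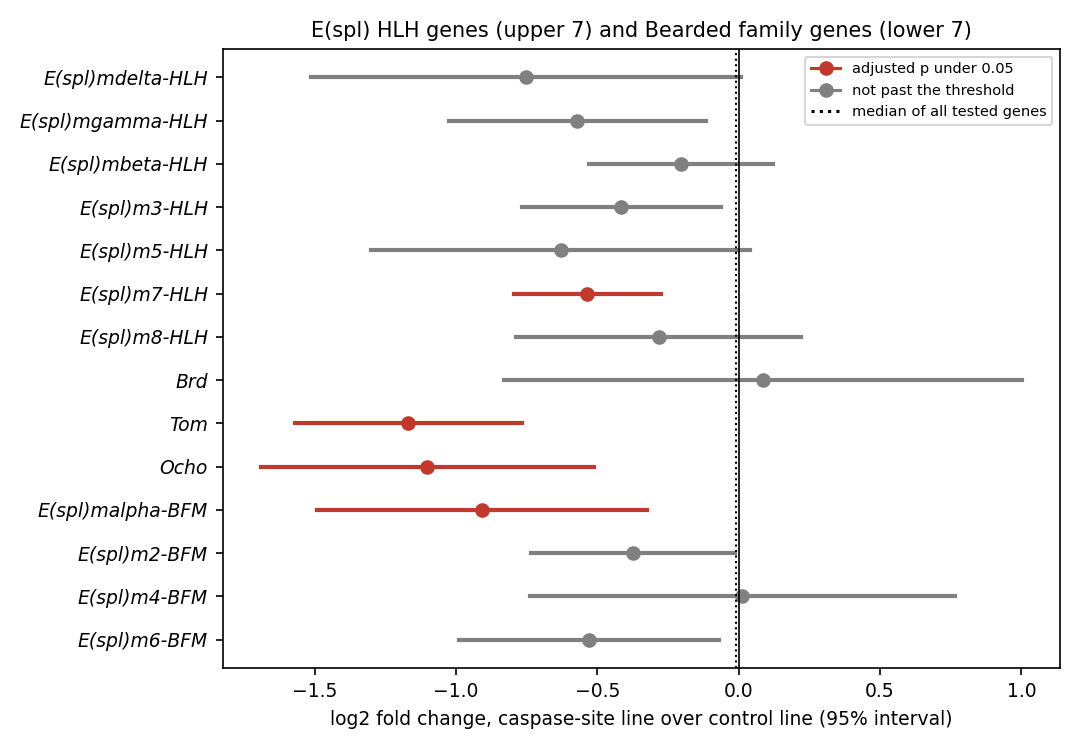
Log2 fold change, caspase-site line over control line (horizontal axis), with its 95% interval, for 7 Enhancer of split helix-loop-helix genes and 7 Bearded family genes, in red where the adjusted p was under 0.05. E(spl)m7-HLH, Tom, Ocho and E(spl)malpha-BFM passed the test, and the other 10 genes, in grey, did not.

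γ-Secretase cuts Notch in the membrane, and of its 4 subunit genes only Psn, which encodes the catalytic subunit presenilin, passed the test. Psn was at 66.3, 67.9 and 64.6 CPM in the caspase-site line, against 77.1, 77.1 and 74.8 CPM in the control line, a log2 fold change of -0.20 (standard error 0.06, edgeR adjusted p 0.0435). Whichever library was left out, Psn missed the threshold (edgeR adjusted p of at most 0.117). The call of Psn was also lost with no filter (edgeR adjusted p 0.0649), the replicate block (0.0809) and the DESeq2 Wald test (0.084). Nct, aph-1 and pen-2 had log2 fold changes of -0.18, -0.12 and -0.09, with intervals that include 0. No gene passed among the coactivator gene mam, the corepressor genes gro and CtBP, and insv and Bx42, which also act with Su(H). Their log2 fold changes were -0.04 for mam, -0.08 for gro, -0.09 for CtBP, 0.00 for insv and -0.12 for Bx42.

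In a list of 5 genes, made up of regulators of Notch in asymmetric division and the neurogenic gene bib, 2 fell (pon and bib) and 1 rose. pon, whose product helps to place Numb at the cell cortex, was at 9.82, 10.1 and 11.2 CPM in the caspase-site line, against 21.3, 16.0 and 14.5 CPM in the control line. The log2 fold change of pon was -0.73 (standard error 0.16, edgeR adjusted p 0.0134), and its call held in each fit that left out one library. bib, which encodes the channel-like neurogenic protein Big brain, had a log2 fold change of -0.42 (edgeR adjusted p 0.0291), and it missed the threshold whichever library was left out (edgeR adjusted p of at most 0.0807), with the replicate block (edgeR adjusted p 0.0662) and in the DESeq2 Wald test (0.0533). l(2)gl, which encodes a cortical polarity protein, rose by 0.33 on the log2 scale (its standard error was 0.06, edgeR adjusted p 0.00774). The call of l(2)gl held in each fit that left out one library (edgeR adjusted p of at most 0.0459). Among 5 genes of ligand endocytosis shi, the dynamin gene, rose by 0.20 on the log2 scale (edgeR adjusted p 0.0398). Like bib, shi missed the threshold whichever library was left out (edgeR adjusted p of at most 0.16). The call of shi was also lost with upper-quartile scaling (edgeR adjusted p 0.0637), library size alone (0.0912), no filter (0.0741) and the replicate block (0.0786). None of 4 glycosylation and folding genes, 4 other receptor protease genes and 9 receptor trafficking genes passed the test at this threshold. This does not show that they were unchanged.

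Markers of the cell types in which the pathway acts were read beside these results. Among 5 neuroblast markers, mira, wor and pros fell, with log2 fold changes of -0.54, -0.55 and -0.33. The other markers, dpn and insc, had positive estimates of 0.19 and 0.11 and did not pass (edgeR adjusted p 0.661 and 0.496). The summed level of the 5 neuroblast markers was 178 to 193 CPM in the caspase-site line against 224 to 234 CPM in the control line. None of them was at 0 in any library. Among 6 neuron markers nSyb and Syt1 rose (0.23 and 0.25 on the log2 scale) and elav fell (-0.31), and the sum was 1500 to 1565 CPM in the caspase-site line against 1506 to 1597 CPM in the control line. Of 5 glial markers gcm fell, with a log2 fold change of -0.78, and the sum was 234 to 252 CPM in the caspase-site line against 260 to 270 CPM in the control line. Of 6 muscle markers Tm2, up, Act57B and Mhc rose by 0.24 to 0.31 on the log2 scale, and the sum was 23015 to 23452 CPM in the caspase-site line against 18734 to 20526 CPM in the control line. None of 5 hemocyte and 4 tracheal markers passed the test. Of 4 tested proneural genes none passed, with 3 negative estimates, 1 positive estimate and a median log2 fold change of -0.50. The genes ac, ato and amos were below the filter. Of the 21 listed cuticle, patterning and cell-type genes that passed, 6 did so whichever library was left out. These were mira, run, Tm2, Ddc, TwdlB and Ccp84Ab. The other 15 missed the threshold in at least 1 such fit (edgeR adjusted p of at most 0.172). The part of neuroblast, glial and muscle markers in the fall of the Notch genes was not tested.

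The tested genes whose values over the 6 libraries lay closest to a core gene were found for fng, which had the smallest p, and for N. Likeness was the root mean square difference of log2 CPM after each gene was centred on its own mean. Patterns over the libraries that these genes share with the core gene therefore follow from the way they were picked. For fng the nearest genes were JhI-26 (0.0347), Trp1 (0.0389) and nod (0.0462). Trp1 was at 250, 248 and 236 CPM in the caspase-site line, against 420, 351 and 323 CPM in the control line, with the same order of control libraries as fng. For N the nearest genes were CG8516 (0.0334), Nup188 (0.0406) and IntS14 (0.0469). CG8516 was at 33.1, 27.1 and 31.6 CPM in the caspase-site line, against 41.2, 37.3 and 39.3 CPM in the control line, with caspase-site library 2 the lowest as for N.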

How the data were processed

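Read counts per gene, as whole numbers for 6 libraries, were deposited by the authors, with a second table with the same counts, log2 CPM per library, a log2 fold change, its p-value and adjusted p-value, and the moderated t and log odds as scores, per the file headers. Each of the 10526 genes in the second table had equal counts in both, and the scores were not used here. TopHat2 2.1.1, Bowtie2 2.3.4.0, edgeR 3.14.0 and limma 3.28.21 are named in the submitters' processing notes. The counting tool, its strand setting and the genome build are not given in the sources used here. Libraries were poly(A)-selected, directional and single-end, without molecular identifiers, per the labels' protocols, and PCR copies count as reads. 0 columns were left unmatched.

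Genes were kept by filterByExpr of edgeR 4.0.16 (minimum count 10, minimum total 15) in R 4.3.3, scaled by TMM and tested with the quasi-likelihood test (glmQLFTest), two-sided, with Benjamini-Hochberg adjustment over all tested genes and a threshold of 0.05. The standard error is the size of the log2 fold change over the square root of F, and intervals are 95%. Alternatives were other scalings and filters, DESeq2 1.42.0, limma-voom (limma 3.58.1), a block for the replicate number, thresholds of 0.01 and 0.1, and fits without each library. The labels name separate collections, and p-values measure the spread between these. Positions, overlaps and exon lengths come from Ensembl release 115 (BDGP6). The code was tested on simulated counts. The core genes and all lists were chosen with earlier results of these data known, and the 6 ratios with the core genes' values known. All core genes were named, with each tested Enhancer of split, Bearded, γ-secretase and cofactor gene, other listed genes past the threshold and the 3 genes nearest to fng and to N.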

Additional observations from a re-analysis of the deposited data

How the results depend on the processing

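For the 10 core genes all 140 estimates under the alternatives had the reported direction, and 21 lost the call. 19 of these came from leaving out a library or blocking, and Su(H) was also lost with DESeq2's size factors and the DESeq2 Wald test. The number of core genes called was 5 to 6 with another scaling, filter, test or block, 1 at an adjusted p under 0.01, and 2 to 5 with one library left out. It was 2 without caspase-site library 2 and without control library 2, and 3 without caspase-site library 3, control library 1 and control library 3. Over all genes, 919 of 10526 passed at an adjusted p under 0.01, 248 of them lower in the caspase-site line. Calls over all genes numbered 1753 (650 lower) without caspase-site library 2 and 1499 (568 lower) without control library 2.

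Other Notch pathway genes called numbered 9, with 2 at an adjusted p under 0.01, 16 under 0.1, and 4 to 10 when one library was left out. Over all tested genes the calls (2350, 1437 higher and 913 lower) fell to 919 (671 higher, 248 lower) at 0.01. The lower calls rose to 1389 at 0.1. Leaving out one library gave 1295 to 2146 calls, 838 to 1415 higher and 457 to 738 lower. The cause of these differences was not tested, beyond the smaller number of libraries.

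With the replicate number as a block 1994 genes were called (1328 higher, 666 lower), with 5 core genes and 7 other pathway genes, and Su(H) lost its call (adjusted p 0.0841). Equally numbered libraries did not deviate together (correlations -0.0184, -0.0188 and 0.0102, against -0.104 to 0.126 for differing numbers). With 3 libraries per line, whether equal numbers were handled together cannot be told from these values. Of the caspase-site libraries 0 correlated best with the control library of its own number.

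Of 55 other named genes, 4 changed sign in 19 of 770 estimates, none of them past the threshold. sgg was at -0.0039 with upper-quartile scaling and -0.024 with library size alone, and between -0.026 and 0.0402 with one library left out. insv was at -0.0015 with DESeq2's size factors, -0.0214 with upper-quartile scaling, -0.0423 with library size alone, -0.0084 with no filter and -0.0207 with limma-voom, and between -0.174 and 0.128 with one library left out. E(spl)m4-BFM was at -0.0068 with upper-quartile scaling and -0.0324 with library size alone, and between -0.323 and 0.206 with one library left out. Brd was between -0.146 and 0.37 with one library left out.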
